A study of Mus musculus with 8 samples.

Results

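The core loop of the circadian clock was followed through 8 libraries of mouse heart ventricle. Its 10 genes were chosen by name: Arntl, Clock, Npas2, Per1, Per2, Per3, Cry1, Cry2, Nr1d1 and Nr1d2. All 10 were found among the 38293 genes of the count table, and all 10 passed the filter on low counts that left 14567 genes for testing. The study compared 4 samples of mice heterozygous for a Pkp2 deletion (HET, PKP2 c.1755delA/WT) with 4 samples of wild-type mice (WT). Pkp2 encodes plakophilin-2, an armadillo protein of the desmosome that joins heart muscle cells to each other. All samples came from cardiac ventricle, left and right mixed, at 8 weeks of age, without a treatment named in the labels. The labels do not give the hour at which tissue was taken, the light schedule or the sex, and they do not say that samples came from separate animals. P-values therefore measure only the spread between these samples, which may be technical. The series title and design give the deletion of an A, the genotype label gives the same position without the word deletion, and the count table is named for a deletion of another base.

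The clock loop is a feedback circuit that nearly every cell runs by itself. ARNTL (also called BMAL1) pairs with CLOCK or NPAS2, and the pair binds the E-box, a short DNA word in promoters and enhancers, and switches on the Per, Cry and Nr1d genes. PER and CRY proteins return to the nucleus hours later and block the pair, while NR1D1 and NR1D2 (REV-ERB alpha and beta) repress Arntl, Clock and Npas2 through another word, the RORE. Transcripts of the activating arm and of the repressing arm therefore peak at opposite hours in peripheral tissues such as the heart, where the loop is known to time metabolism and ion channel expression.

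Promoter sequences show which of these words lie next to the transcription starts. Windows of 250 bases before the start were taken from RefSeq (GRCm38.p6), in which 9 of the 10 genes had an entry (13 windows in all). Per2 had none. The canonical E-box CACGTG was in the windows of Per1 and Cry1, 2 of the 9 genes and 2 of the 13 windows. Of all 32851 windows, 6.02% held it. The variant CACGTT, read on both strands and so also found as AACGTG, was in those of Cry1, Cry2 and Nr1d1. These were 3 of the 13 windows, against 3.85% of all windows. The D-box TTANNTAA, bound by the DBP, TEF and HLF proteins, was in that of Per3 (1 of the 13 windows), against 5.43%. The RORE core TAGGTCA was in 0 of the 9 genes and 0 of the 13 windows, against 2.23%. All 4 words were searched on both strands, and no match in these genes overlapped a match of another word. A match describes letters in these windows and is not a measured binding site. The windows of loop genes with a match, and that of Ciart, are shown 5′ to 3′ on the gene's strand. Matched words are in capitals, and the windows were trimmed where they ran into an exon of the annotation. They are chr11:69098699-69098947 for Per1 (plus strand), chr4:151044666-151044915 for Per3, chr10:85185065-85185304 for Cry1, chr2:92434070-92434319 for Cry2, chr11:98775378-98775627 for Nr1d1 and, for the output gene Ciart described further on, chr3:95882252-95882478 (all 5 on the minus strand).
Per1: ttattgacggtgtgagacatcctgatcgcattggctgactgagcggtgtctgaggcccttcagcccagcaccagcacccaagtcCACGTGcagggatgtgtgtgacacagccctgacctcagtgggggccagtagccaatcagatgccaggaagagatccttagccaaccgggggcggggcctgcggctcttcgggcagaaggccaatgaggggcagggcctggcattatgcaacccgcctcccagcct
Per3: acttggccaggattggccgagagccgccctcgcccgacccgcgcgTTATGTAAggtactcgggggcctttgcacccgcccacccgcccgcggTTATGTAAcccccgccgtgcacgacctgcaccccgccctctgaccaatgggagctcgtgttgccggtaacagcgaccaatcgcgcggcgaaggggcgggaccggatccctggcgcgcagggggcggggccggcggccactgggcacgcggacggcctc
Cry1: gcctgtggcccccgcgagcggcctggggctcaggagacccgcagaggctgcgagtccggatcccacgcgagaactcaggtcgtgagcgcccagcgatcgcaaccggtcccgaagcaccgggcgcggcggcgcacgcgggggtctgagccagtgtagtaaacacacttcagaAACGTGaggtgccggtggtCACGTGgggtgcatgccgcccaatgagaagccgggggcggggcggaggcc
Cry2: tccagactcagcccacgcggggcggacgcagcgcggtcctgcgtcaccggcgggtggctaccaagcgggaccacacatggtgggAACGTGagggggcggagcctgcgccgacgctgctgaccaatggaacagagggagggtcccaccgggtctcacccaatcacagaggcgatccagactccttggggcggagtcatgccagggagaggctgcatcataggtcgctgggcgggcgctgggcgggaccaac
Nr1d1: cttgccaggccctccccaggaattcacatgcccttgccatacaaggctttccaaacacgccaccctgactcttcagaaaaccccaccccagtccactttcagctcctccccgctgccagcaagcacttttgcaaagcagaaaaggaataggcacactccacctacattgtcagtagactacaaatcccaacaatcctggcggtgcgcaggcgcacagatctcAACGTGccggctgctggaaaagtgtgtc
Ciart: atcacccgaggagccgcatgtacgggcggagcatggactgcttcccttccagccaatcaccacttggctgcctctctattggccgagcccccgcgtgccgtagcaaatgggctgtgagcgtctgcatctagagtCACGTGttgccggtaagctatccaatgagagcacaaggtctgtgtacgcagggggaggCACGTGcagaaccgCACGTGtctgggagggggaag
The E-box of Per1 ended 161 bases before the start and that of Cry1 55 bases before it. Per3 held the same D-box letters, TTATGTAA, in 2 places, ending 198 and 151 bases before the start. Ciart, which encodes the repressor CHRONO, held 3 canonical E-boxes, ending 111, 53 and 39 bases before it. It is not typical of the output genes. Bhlhe41 and Tef also held a canonical E-box, while the windows of Dbp, Hlf, Nfil3 and Nampt held none.

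Total counts were 32397302 to 41234883 per library. Pkp2 itself stood at 88.2 to 105.6 CPM (read counts scaled to library size) in HET and at 148.5 to 169.1 CPM in WT. Its log2 fold change was -0.74. Heart muscle markers were high in every library (7 genes, summed level 73766 to 77332 CPM in HET and 69007 to 73773 CPM in WT). Sample titles carry a number that 4 libraries share (HET replicates 1, 3 and 4 and WT replicate 1), a second number shared by 3 libraries (HET replicate 2 and WT replicates 3 and 4), and a number of its own for WT replicate 2. The labels do not say what it marks.

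In the clock genes WT replicate 2 was set off from the other 7 libraries. It lay more than 1 log2 unit outside the range of the others for 24 of 14567 genes (0.165%). Of these 24, 3 were loop genes (Arntl, Per2 and Per3) and 3 were output genes of the clock (Ciart, Hlf and Dbp). Among the 11652 genes with a mean of at least 2 CPM, the gap between this library and the nearest other ranked 4th for Arntl, 5th for Per2, 8th for Per3 and 15th for Npas2. For Nr1d1 and Cry1 the library lay within the range of the others. No loop gene was apart by that much in any other library. Outside the clock, the same library nearly lacked the predicted gene Gm14085 (0.0252 CPM, against 3.42 to 5.05 in the others) and Eif3j2 (0.302 CPM, against 4.62 to 6.34), both chosen after their values were seen. WT replicate 3 was apart by as much for more genes, 137 (0.940%), among them 0 loop genes and 0 output genes, and the remaining 6 libraries for 9 to 19 genes each. What WT replicate 2 shows and its title number cannot be told apart, so the comparisons and correlations of the loop genes are given with and without it.

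Arntl, the obligate partner of the activating pair, was 6.61-fold higher in the mean of the other 7 libraries than in WT replicate 2. Arntl (ENSMUSG00000055116; GRCm38 chromosome 7, 113207465 to 113314126, plus strand) stood at 19.6, 21.3, 28.4 and 24.2 CPM in HET replicates 1 to 4 and at 28.8, 3.42, 23.5 and 12.4 CPM in WT replicates 1 to 4. The lowest values were those of WT replicates 2 and 4, and the other WT libraries lay within or just above the HET range. Behind the value of 3.42 CPM stood 136 counts. The mean was 23.4 ± 3.86 CPM in HET and 17.0 ± 11.4 CPM in WT (SD, n = 4 each), or 21.6 ± 8.35 CPM in WT without replicate 2 (n = 3). In a bulk sample, fewer cells that express a gene and less RNA per cell cannot be told apart.

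Clock, the DNA-binding partner with acetyltransferase activity, was lowest in the same 2 libraries, over a smaller range. Clock (chromosome 5, 76209868 to 76304792, minus strand) stood at 30.4, 34.1, 37.8 and 32.6 CPM in HET and at 35.4, 22.1, 38.4 and 26.5 CPM in WT. WT replicates 2 and 4 lay below the other 6 libraries, whose order differed from that for Arntl. Npas2, the partner that can stand in for CLOCK (chromosome 1, 39193731 to 39363236, plus strand), stood at 8.66, 7.18, 8.08 and 10.97 CPM in HET. In WT it stood at 10.4, 3.82, 10.6 and 6.81 CPM, lowest in the same pair of libraries. The mean of the other 7 libraries was 1.52-fold that of WT replicate 2 for Clock and 2.34-fold for Npas2.

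The Per genes were all highest in WT replicate 2. Per2, the period gene whose protein carries much of the repressor complex (chromosome 1, 91415982 to 91459324, minus strand), stood at 8.06, 10.9, 7.25 and 10.8 CPM in HET and at 3.51, 39.1, 4.54 and 8.84 CPM in WT. Its level in WT replicate 2 was 5.08-fold the mean of the other 7 libraries, while WT replicates 1 and 3 lay below every HET library. Mean levels were 9.25 ± 1.87 CPM in HET and 14.0 ± 16.9 CPM in WT (SD, n = 4 each), or 5.63 ± 2.82 CPM in WT without replicate 2.

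Per3 (chromosome 4, 151003652 to 151044665, minus strand), which is dispensable for rhythms but strongly rhythmic itself, stood at 19.9, 26.5, 17.0 and 20.7 CPM in HET. In WT it stood at 14.4, 69.0, 17.2 and 29.8 CPM, highest in replicates 2 and 4, the libraries lowest in Arntl. WT replicate 2 was 3.32-fold the mean of the others. Per1 (chromosome 11, 69095217 to 69109960, plus strand), the period gene that also answers directly to hormones and cyclic AMP, stood at 66.6, 40.8, 82.1 and 64.9 CPM in HET and at 26.6, 107.5, 40.2 and 38.5 CPM in WT. Here WT replicate 4 was not among the high libraries. All 4 HET libraries lay above WT replicates 1, 3 and 4 and below WT replicate 2.

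The 2 Cry genes encode the strongest repressors of the loop and differed in pattern. Cry2 (chromosome 2, 92403646 to 92434043, minus strand) stood at 33.0, 38.5, 30.04 and 30.9 CPM in HET and at 29.5, 56.1, 31.7 and 38.4 CPM in WT. Its highest library was WT replicate 2, at 1.69-fold the mean of the others, and the remaining WT libraries overlapped HET. Cry1 (chromosome 10, 85131700 to 85185064, minus strand), whose transcript is known to peak later than those of the Per genes, stood at 7.07, 9.64, 7.49 and 7.94 CPM in HET and at 8.77, 7.87, 8.36 and 5.56 CPM in WT. WT replicate 2 was in the middle of these values, and the lowest library was WT replicate 4.

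The Nr1d genes encode nuclear receptors that bind haem and repress through NCOR1. Nr1d1 (chromosome 11, 98767932 to 98775333, minus strand) stood at 175.6, 160.3, 163.3 and 158.7 CPM in HET and at 161.3, 228.0, 140.1 and 245.8 CPM in WT. The 4 HET libraries lay within a narrow band, which also held WT replicate 1. WT replicate 3 lay below it and replicates 2 and 4 above it, with replicate 4 the highest. Nr1d2 (chromosome 14, 18204054 to 18239127, minus strand) stood at 64.4, 73.0, 73.4 and 73.4 CPM in HET and at 57.7, 107.2, 64.5 and 77.9 CPM in WT. Its highest values were again those of WT replicates 2 and 4.

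**Figure D1:**
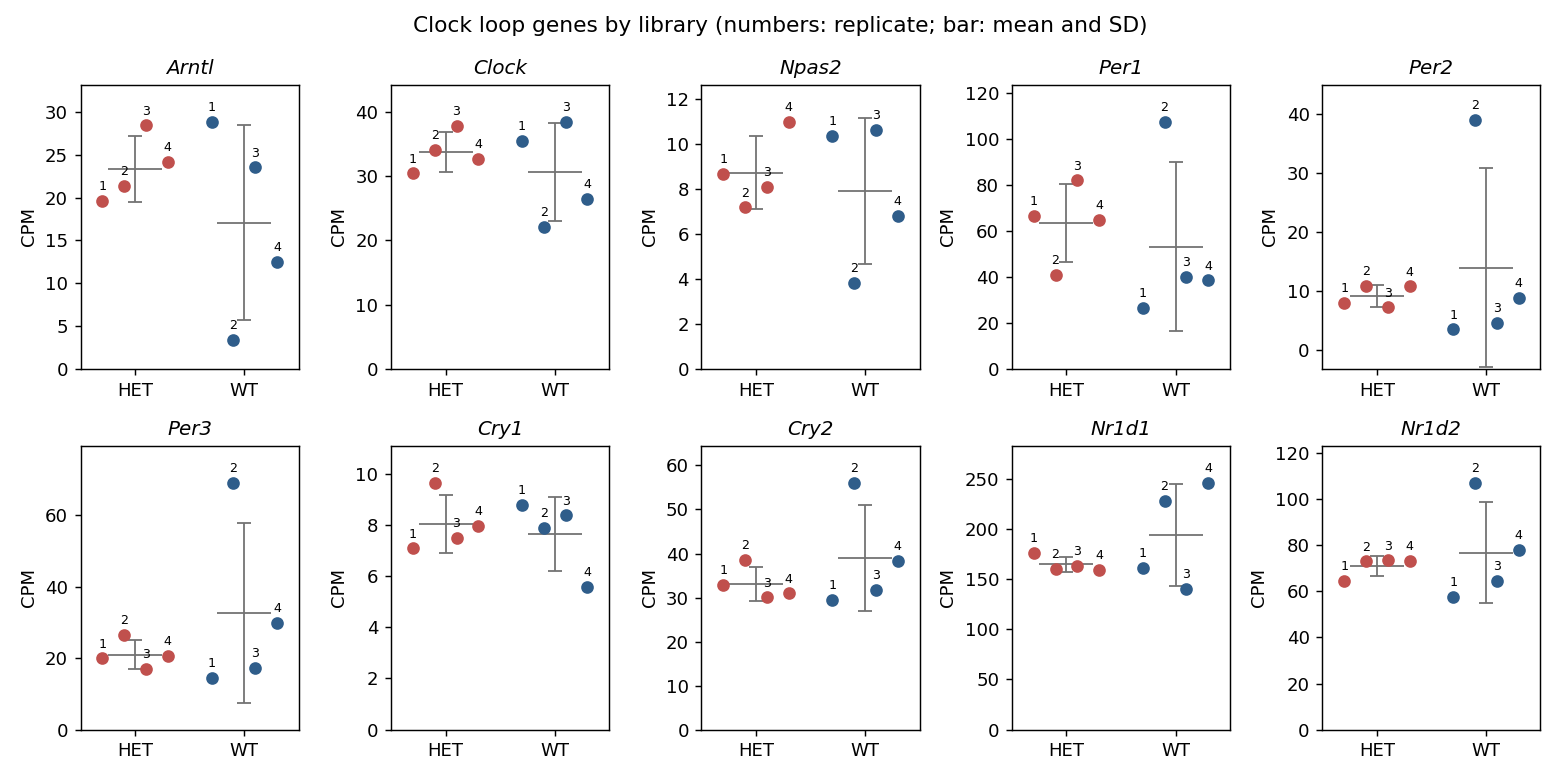
Levels of the 10 clock loop genes in CPM, 1 panel per gene, with HET in red and WT in blue. Numbers give the replicate, and bars the mean and SD of 4 libraries. WT replicate 2 is the lowest library for Arntl (3.42 CPM) and the highest for Per2 (39.1 CPM), while it lies inside the range for Cry1.

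Scaled to exon length, the order of the transcripts was led by Nr1d1. On the scale of CPM per kb of exon, the level over the 8 libraries was 58.2 for Nr1d1, 13.7 for Nr1d2, 10.4 for Per1 and 5.70 for Cry2. The other 6 genes lay close together, from 2.79 for Per3, 2.69 for Arntl, 2.35 for Cry1 and 2.34 for Clock to 1.99 for Per2 and 1.74 for Npas2. The lowest Nr1d1 library (45.5 CPM per kb) was above the highest library of any other loop gene (19.8 CPM per kb for Nr1d2). Per1 ranged from 4.72 to 19.1 CPM per kb and so overlapped both Nr1d2 and Cry2. The ranges of the 6 low genes overlapped each other, and those of Per2 and Per3 reached Cry2 through WT replicate 2. Without that library the 4 leading genes kept their order (56.0, 12.8, 9.13 and 5.24), and the others were at 3.01 for Arntl, 2.45 for Clock, 2.35 for Cry1, 2.16 for Per3, 1.87 for Npas2 and 1.31 for Per2, all below the range of Cry2.

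Between genotypes, no loop gene passed the test. The background was 1 of 14567 genes called (0.00686%), Pkp2, and 6.38% of genes at an unadjusted p under 0.05, by the quasi-likelihood test of edgeR. Of the 10 loop genes 0 were called and 0 had an unadjusted p under 0.05, with adjusted p-values of 0.793 to 0.936 by the same edgeR test (Benjamini-Hochberg over all genes tested). DESeq2 called 0 of them as well. Log2 fold changes of HET over WT were positive for 5 and negative for 5, with a median of -0.02, beside -0.00 over all genes tested. For 551 genes (3.78%) the 4 HET and 4 WT libraries did not overlap, and no loop gene was among them.

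The intervals were wide where WT replicate 2 stood apart. In the activating arm the log2 fold change was 0.45 for Arntl (SE 0.586, 95% interval -0.96 to 1.87), 0.14 for Clock (interval -0.25 to 0.53) and 0.14 for Npas2 (interval -0.58 to 0.86). With 4 samples a group, differences of any size inside these intervals remained possible. Among the Per genes the log2 fold change was 0.26 for Per1 (interval -0.91 to 1.43), -0.60 for Per2 (interval -2.58 to 1.38) and -0.63 for Per3 (interval -1.92 to 0.65). Narrower intervals belonged to Cry1 (0.07, interval -0.26 to 0.40), Cry2 (-0.23, interval -0.71 to 0.25), Nr1d1 (-0.24, interval -0.64 to 0.17) and Nr1d2 (-0.11, interval -0.54 to 0.31).

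Without WT replicate 2 the signs of Npas2, Per2, Per3 and Nr1d2 turned. In that comparison (4 HET against 3 WT) the fit called 0.00681% of genes and 0 loop genes. Per1 had a log2 fold change of 0.86 (SE 0.272, interval 0.19 to 1.53, unadjusted p = 0.0205 and adjusted p = 0.797 by edgeR). It was the 1 of 10 loop genes below an unadjusted p of 0.05, beside 6.15% of all genes in that fit, and the 1 whose HET libraries (40.8 to 82.1 CPM) all lay above the 3 WT libraries (26.6 to 40.2 CPM), as did those of 3.21% of genes. Per2 had 0.72 (interval -0.06 to 1.498), Arntl 0.11, Clock 0.01, Npas2 -0.09, Per3 0.04, Cry1 0.09, Cry2 -0.00, Nr1d1 -0.15 and Nr1d2 0.09. With the title number as a covariate, which also takes WT replicate 2 out of the contrast, Per1 had 0.77 and Per2 had 1.01 (interval 0.22 to 1.80, unadjusted p = 0.0206 and adjusted p = 0.966 by edgeR). Within the title numbers 1 group or the other had too few libraries for a test of its own.

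**Figure D2:**
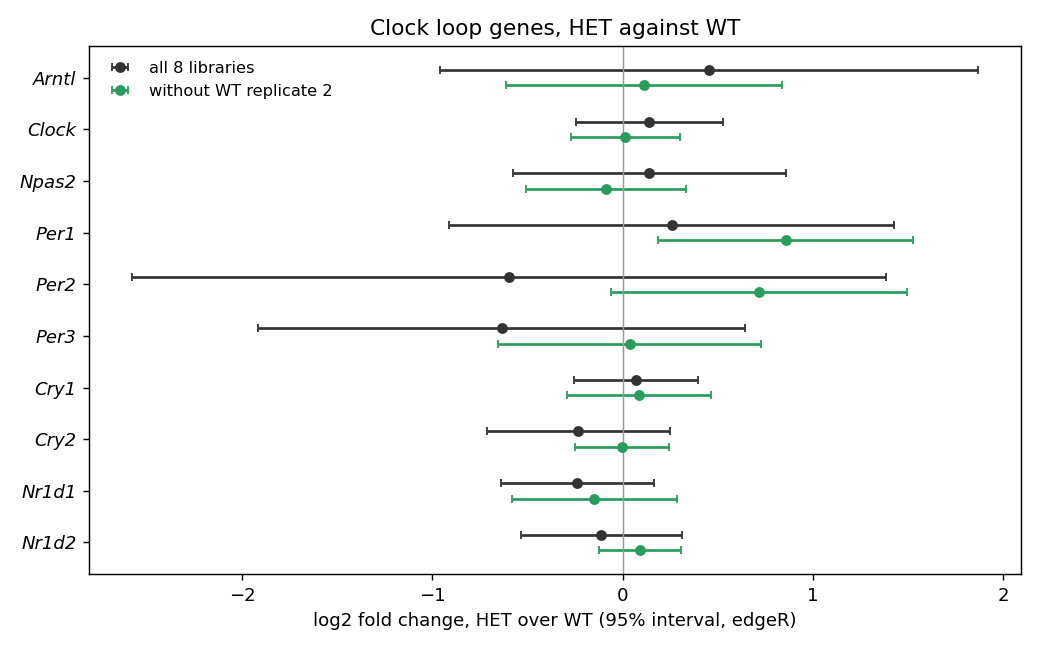
Log2 fold changes of HET over WT with 95% intervals from edgeR, for all 8 libraries (dark) and without WT replicate 2 (green). With 8 libraries every interval covers 0, and without WT replicate 2 that of Per1 (0.19 to 1.53) does not.

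Across libraries, the activating arm was negatively correlated with most of the repressing arm, but 0 pairs were called without WT replicate 2. Of the 45 pairs of loop genes, 23 were correlated over the 8 libraries (9 positively and 14 negatively, adjusted p below 0.05 by an exact permutation test of Pearson's r of log2 CPM, two-sided, Benjamini-Hochberg over 45 pairs). The share of pairs of other genes that would pass this rule was not computed. Arntl was positively correlated with Clock (r = 0.92, rho = 0.79, exact permutation p = 0.0015, adjusted p = 0.0141) and with Npas2 (r = 0.91, rho = 0.69, exact permutation p = 0.00751, adjusted p = 0.0280). Against Per3 it had r = -0.97 (rho = -0.88, exact permutation p = 0.00102, adjusted p = 0.0141), and against Cry2 r = -0.96 (rho = -0.93, exact permutation p = 0.00171, adjusted p = 0.0141). Per3 and Cry2 had the highest value of the 45 pairs, r = 0.99 (rho = 0.90, exact permutation p = 5.46e-04, adjusted p = 0.0141).

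Of the 45 pairs 0 passed without WT replicate 2 (smallest adjusted p = 0.127 by the exact permutation test), although 41 kept their sign. Without WT replicate 4, 2 of them passed. By Spearman's rho 0 passed (smallest adjusted p = 0.0685, exact permutation test), and after subtraction of each group's mean 0 passed (smallest adjusted p = 0.0781, exact permutation test within groups). That test can give no p below 0.00174, so a single pair at this floor could not pass over 45 pairs. Several pairs at the floor could pass together. By the same test some pairs of a loop gene and an output gene did pass, though most did not. Arntl with Dbp and Cry2 with Nfil3, for example, had an adjusted p of 0.0446 by that test. After the subtraction, which leaves WT replicate 2 among the libraries, all 45 signs of the loop pairs were kept. The values were r = -0.98 for Arntl and Per3, -0.96 for Arntl and Cry2, 0.92 for Arntl and Npas2 and 0.99 for Per3 and Cry2. With the 2 libraries farthest from the median of the first gene left out, 0 passed (smallest adjusted p = 0.375, exact permutation test). Leaving out any 1 HET library left 17 to 23 called pairs, leaving out WT replicate 1 left 10 and leaving out WT replicate 3 left 13. Without WT replicate 2 no call stayed, and without WT replicate 4 the signs of 44 of the 45 pairs were kept. Each such fit had 1 library less, so a lost call does not show a lost correlation.

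The pairs differed in how far their values fell. For Per3 and Cry2, r was 0.94 without WT replicate 2 and 0.90 without WT replicates 2 and 4. For Arntl and Clock it was 0.88 and then 0.65, and for Arntl and Npas2 0.63 and then 0.30. Between Arntl and the repressing arm, r without WT replicate 2 was -0.85 for Per3, -0.81 for Cry2, -0.84 for Nr1d1, -0.52 for Nr1d2 and -0.44 for Per2. Without WT replicates 2 and 4 these were, in the same order, -0.72, -0.72, -0.20, -0.17 and -0.53. Clock and Nr1d1 had -0.89 with and without WT replicate 2, and -0.72 without WT replicates 2 and 4. Cry1 joined 0 of the called pairs. Its r with all 8 libraries and without WT replicate 2 was 0.24 and 0.74 to Arntl, 0.44 and 0.74 to Clock, -0.69 and -0.85 to Nr1d1, and -0.10 and -0.27 to Cry2. Without WT replicates 2 and 4 it was 0.08 to Arntl, 0.28 to Clock, -0.42 to Nr1d1 and 0.50 to Cry2. Per1 joined 0 as well, with r = 0.75 to Per2 (adjusted p = 0.0522, exact permutation test), 0.54 to Per3 and -0.53 to Arntl (0.13 without WT replicate 2). For Per1 and Per3 the value was 0.01 without WT replicate 2.

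A value of r of at least 0.8 in size with Arntl was found for 5.36% of all genes over the 8 libraries, and for 6 of the 9 other loop genes and 7 of 9 output genes. The share of all genes was 5.31% without WT replicate 2, with 4 of 9 loop genes and 4 of 9 output genes. All values, also those behind the share of all genes, come from the same libraries and the same scaling. What this adds to r was not tested. For Per1 0 of the 9 other loop genes reached that size over the 8 libraries, beside 1.78% of all genes, and for Cry1 0 of 9, beside 1.23% (without WT replicate 2, 1 of 9 beside 2.64%).

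**Figure D3:**
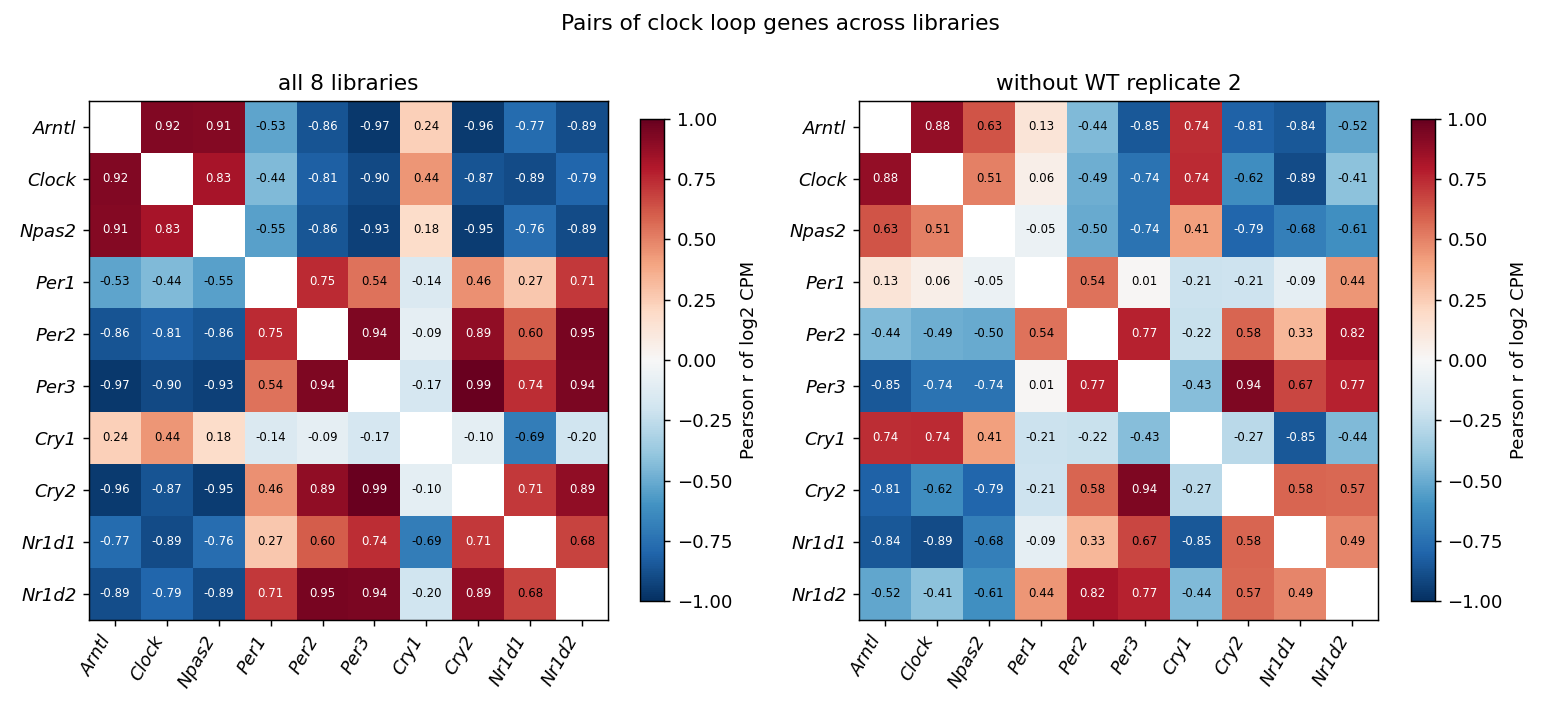
Pearson's r of log2 CPM for each pair of loop genes over the 8 libraries (left) and without WT replicate 2 (right), red for positive and blue for negative values. Arntl and Per3 have r = -0.97 on the left and -0.85 on the right, and the row of Cry1 is pale on the left.

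Of 9 output genes of the loop, WT replicate 2 was the highest library for 7, the lowest for 1 (Nfil3) and inside the range of the others for 1 (Nampt). Dbp, Tef and Hlf encode the activators of the D-box, and Nfil3 encodes their repressor. Dbp stood at 55.0, 59.6, 33.5 and 35.2 CPM in HET and at 30.2, 231.2, 31.5 and 112.5 CPM in WT, highest in WT replicates 2 and 4. Ciart stood at 3.74, 2.15, 3.17 and 2.11 CPM in HET and at 1.97, 33.6, 1.498 and 6.45 CPM in WT, so that WT replicate 2 was 11.1-fold the mean of the others. By contrast, Nfil3 was lowest there (6.74 CPM, against 11.04 to 18.1 CPM in the others). Tef (2.18-fold), Hlf (2.70-fold) and Bhlhe41, which encodes the repressor DEC2 (2.24-fold), were higher in that library than the mean of the others. Wee1, a cell cycle kinase gene, was 1.75-fold higher. Bhlhe40, which encodes DEC1, was 1.41-fold higher, with WT replicate 3 next, and its r with Arntl was -0.59 (-0.29 without WT replicate 2). Nampt, which encodes an enzyme of NAD synthesis, was 0.994-fold the mean of the others, with r = 0.20 to Arntl (0.52 without that library). Neither of the last 2 genes was in any called pair.

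Of the 90 pairs of a loop gene and an output gene, 48 were called over the 8 libraries (28 positive and 20 negative, exact permutation test, Benjamini-Hochberg over 90 pairs). Here, too, the share of pairs of other genes passing the rule was not computed. Of the 90 pairs 8 passed without WT replicate 2, and all 8 were among the 48. For Arntl and Dbp, r was -0.95 with 8 libraries (rho = -0.90, exact permutation p = 4.46e-04, adjusted p = 0.00702), -0.95 without WT replicate 2 and -0.83 without the 2 farthest libraries. Arntl also passed without that library against Tef (r = -0.86) and Bhlhe41 (r = -0.93). Cry2 passed with Dbp (0.89) and Nfil3 (-0.95), Per3 with Dbp (0.90) and Tef (0.90), and Nr1d1 with Ciart (0.93). All 8 had an adjusted p of 0.0491 by the exact permutation test without WT replicate 2. The value for Nr1d1 and Ciart was 0.84 with all 8 libraries (rho = 0.90, adjusted p = 0.0293, exact permutation test) and 0.88 without WT replicates 2 and 4. Per1 was called with 1 output gene, Wee1 (r = 0.83, rho = 0.95, adjusted p = 0.0112 by the exact permutation test, and 0.81 without WT replicate 2), and Cry1 with 0.

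Per1 and Per2 carry glucocorticoid response elements, so their levels were set beside those of 5 glucocorticoid-induced genes. Of the 15 pairs of a Per gene and such a gene, 0 passed over 8 libraries (smallest adjusted p = 0.120, exact permutation test). Per1 had r = 0.82 with Fkbp5, which encodes a co-chaperone of the glucocorticoid receptor, 0.82 with Tsc22d3, which encodes GILZ (both 0.85 without WT replicate 2), and 0.73 with Klf9. With the remaining genes Per1 had 0.39 for Sgk1 and -0.001 for Zbtb16 (0.65 and 0.49 without WT replicate 2). Without WT replicate 2 the pair of Per1 and Klf9 passed (r = 0.98, rho = 0.93, exact permutation p = 0.00119, adjusted p = 0.0179). Klf9 stood at 90.8, 83.3, 98.9 and 92.7 CPM in HET and at 76.9, 84.7, 80.8 and 80.8 CPM in WT. Its HET and WT libraries overlapped by WT replicate 2 alone. Without that library HET lay above WT with no overlap, as for 3.21% of all genes. After subtraction of each group's mean, Per1 and Klf9 had r = 0.79 over the 8 libraries (adjusted p = 0.0521, exact permutation test within groups). Per2 had values of -0.40 to 0.42 with the 5 genes, and of 0.03 to 0.51 without WT replicate 2. Per3 had values of -0.41 to 0.18 with the 5 genes, and of -0.31 to 0.15 without that library.

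**Figure D4:**
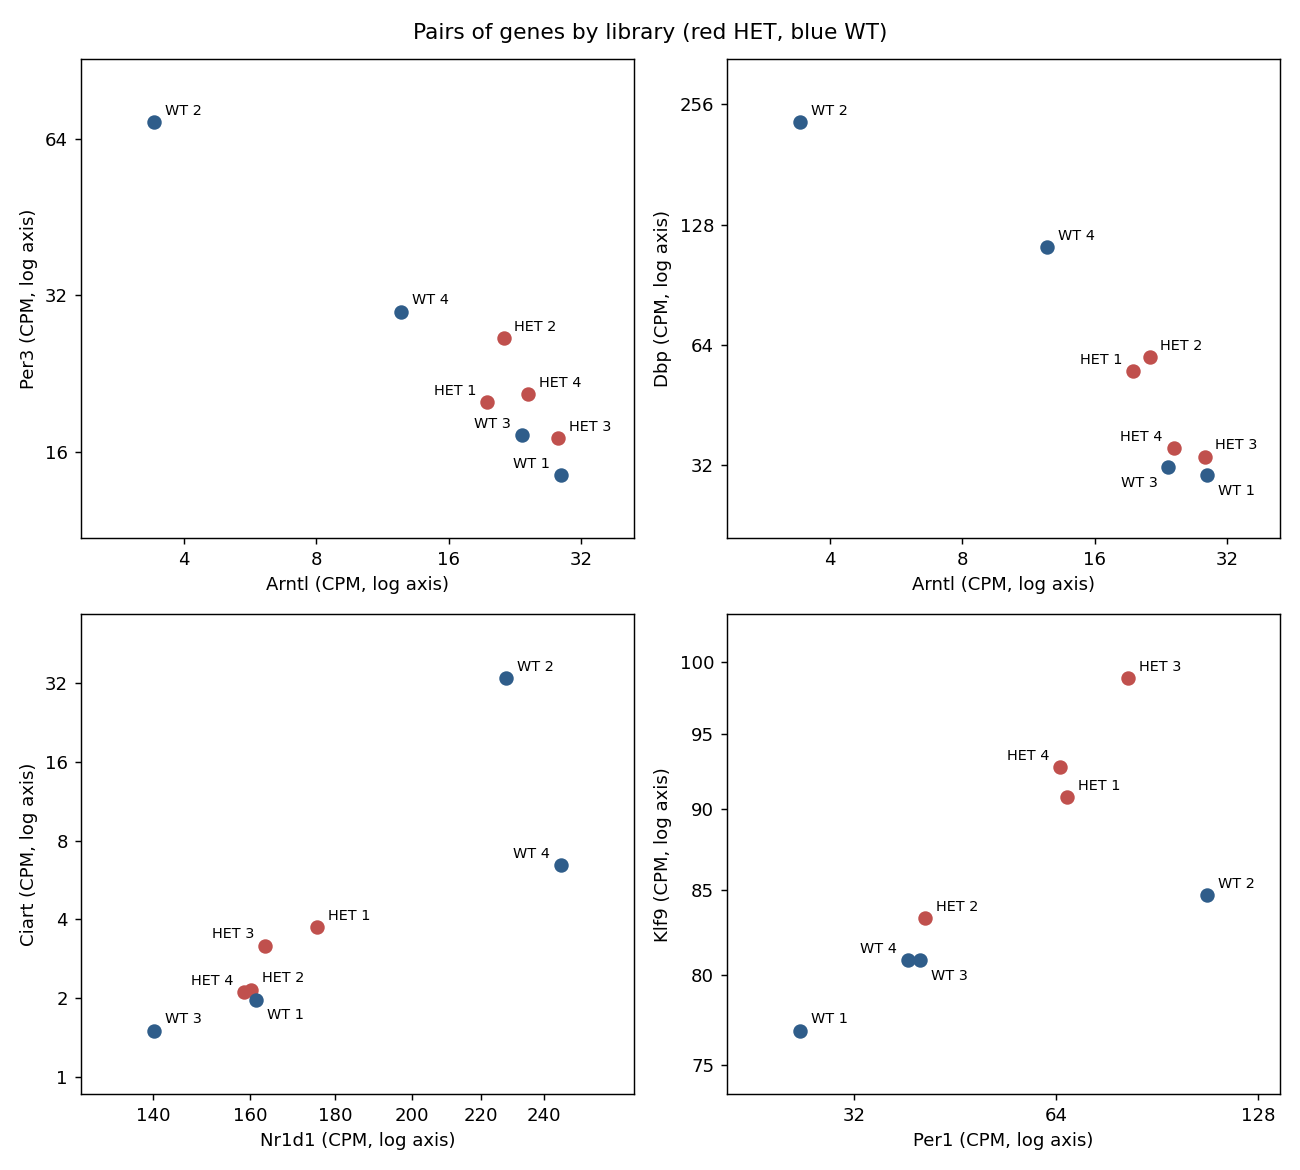
CPM of Arntl against Per3 and Dbp, Nr1d1 against Ciart and Per1 against Klf9 in the 8 libraries, on log axes, HET in red and WT in blue. WT replicates 2 and 4 are the lowest libraries for Arntl (3.42 and 12.4 CPM) and the highest for Dbp (231.2 and 112.5 CPM), and WT replicate 2 is the library off the line of Per1 and Klf9.

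The loop genes varied more between libraries than most genes of like level. The SD of log2 CPM over the 8 libraries was 1.03 for Per2, 1.01 for Arntl, 0.71 for Per3, 0.67 for Per1 and 0.49 for Npas2. Lower SDs belonged to Cry2 (0.31), Nr1d1 (0.28), Clock (0.27), Nr1d2 (0.27) and Cry1 (0.24). The median was 0.40 for the 10 genes and 0.14 for all genes tested, and 9 of the 10, all but Cry1, lay above the 90th percentile of genes in the same decile of mean level. Without WT replicate 2 the medians were 0.27 and 0.13 with 6 of 10 above that line, and without WT replicates 2 and 4 they were 0.19 and 0.13 with 4 of 10.

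Among the HET libraries alone the spread had another order. Per1 varied most there (SD 0.42, 99.2nd percentile), before Per2 (0.30, 91.4th percentile) and Per3 (0.26, 97.0th percentile). Nr1d1 varied least, with an SD of 0.07 at the 49.6th percentile, while over all 8 libraries it was at the 96.5th percentile. Of the 10 loop genes, 5 lay above the 90th percentile within HET, where neither WT replicate 2 nor WT replicate 4 enters.

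Genes that act on the loop were compared between genotypes as lists, and 0 members of any list passed, with adjusted p-values of at least 0.770 by edgeR over all genes tested. Of the 9 output genes 2 had a positive log2 fold change (median -0.32), and without WT replicate 2 it was 6 of 9 (median 0.08). The 2 of smallest p were Ciart (-1.95, and -0.24 without that library) and Bhlhe41 (-0.53 and -0.19). Rora, whose receptor activates at the RORE that NR1D1 represses, had a log2 fold change of 0.06 (0.07 without WT replicate 2). Among 11 kinases, ubiquitin ligases and deubiquitinases of clock proteins 7 were positive (median 0.04; 6 and 0.02 without WT replicate 2), with Btrc, a ligase subunit for PER proteins, at 0.07 and the AMPK subunit Prkaa1 at 0.09. The 9 cofactors had 4 positive values (median -0.00; 4 and -0.01 without that library), with Tipin at -0.24 and its partner Timeless at -0.22.

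Of 13 cardiac genes known to follow the clock 9 were positive (median 0.05; 9 and 0.08 without WT replicate 2). The 2 of smallest p were Gys1, muscle glycogen synthase (0.18), and Klf15, a regulator of cardiac metabolism (0.21). In the same list Tcap, a Z-disc gene named here after its values were seen, stood at 722 to 1054 CPM in 6 libraries, at 1453 CPM in WT replicate 4 and at 2151 CPM in WT replicate 2. All 5 glucocorticoid-induced genes were positive (median 0.18; 4 of 5 without WT replicate 2), with Klf9 at 0.18 and Tsc22d3 at 0.21. The 4 immediate early genes had 1 positive value (median -0.07; 1 and -0.09 without that library), with Egr1 at -0.34 and Junb at -0.14.

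Markers of other cell types were measured beside these genes. In WT replicate 2 the summed level of the 2 blood markers was the lowest of the 8 libraries (149.9 CPM, against 210.8 to 358.1 CPM in the others), and that of the 4 endothelial markers was the lowest as well (811.8 CPM, against 824.1 to 1038 CPM). Of the endothelial genes Kdr alone was lowest there (218.9 CPM, against 259.4 to 347.6 CPM). Pecam1, Cdh5 and Tie1 lay within the range of the others. Fibroblast (5 genes, 689.6 CPM, against 629.9 to 771.1 CPM) and macrophage markers (4 genes, 121.6 CPM, against 113.2 to 178.1 CPM) lay within the range of the others. Smooth muscle and pericyte (4 genes, 832.4 CPM, against 830.8 to 994.0 CPM), atrial (4 genes, 356.2 CPM, against 220.1 to 463.2 CPM) and lymphocyte markers (3 genes, 1.46 CPM, against 1.04 to 1.96 CPM) did as well. Adipocyte markers (3 genes) summed to 0.449 to 2.56 CPM in HET and 0.144 to 0.629 CPM in WT. Both adipocyte genes tested had the higher mean in HET and did not pass (log2 fold change 2.06 for Cidec and 1.55 for Adipoq, adjusted p = 0.770 each by edgeR). No marker gene was at 0 in all libraries. The part of cell content in the clock values was not tested.

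Loop genes were left out of the search for genes most like Arntl and Nr1d1. The genes most like Arntl over the 8 libraries, among 8431 genes outside the loop of at least 10 CPM, were Mypn (r = 0.98), Leo1 (0.98), Mapk8ip3 (0.97), Snx27 (0.97) and Hfe2 (0.97). At the other end were Bhlhe41 (-0.98), Pelo (-0.97), Tef (-0.97), Ypel5 (-0.97) and Abl1 (-0.96), so that 2 of the 5 were output genes of the clock. Without WT replicate 2 the first 5 had r = 0.81 to 0.95 with Arntl and the last 5 -0.93 to -0.78. Nr1d1 was most like Prdx4 (0.96), Mrpl43 (0.95), Babam2 (0.95), Gpsm1 (0.95) and Mrpl41 (0.94), and least like Auts2 (-0.98), Usp33 (-0.97), Pstpip2 (-0.97), Dpp8 (-0.96) and Mrs2 (-0.95). Without WT replicate 2 these were 0.92 to 0.97 and -0.97 to -0.95. None of these 10 was an output gene. These values are descriptions, since the genes were picked for them among 8431.

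Some loop genes overlap a neighbour in the annotation, and whether the counting used strand is not given in the sources used here. Nr1d1 shares 263 bases of exon (8.55% of its own) with Thra, the thyroid hormone receptor gene on the opposite strand. Thra stood at 88.1 to 112.5 CPM in HET and 86.1 to 107.9 CPM in WT (log2 fold change 0.07) and did not show the high values of Nr1d1 in WT replicates 2 and 4. Cry2 shares 295 bases (4.67%) with D930015M05Rik, which had 1 to 4 counts. Per3 lies within the region of Camta1 on the same strand and shares 0 exon bases with it.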

How the data were processed

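RNA of 8 ventricle samples (4 HET, 4 WT) was extracted with Trizol and made into stranded poly(A) libraries, per the labels' protocols. The authors deposited raw read counts per gene, whole numbers for 38293 Ensembl genes, made with STAR 2.4.2a and HTSeq 0.6.1 on GRCm38/mm10, per the submitters' processing notes. The annotation release and the strand setting are not given in the sources used here. Every column of the table had a sample. Groups were taken from the genotype label, and replicates were numbered by accession, so a shared number does not pair samples. Symbols were matched for 36345 genes, and positions came from GENCODE M21.

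Counts were tested with edgeR 4.0.16 in R 4.3.3 (filterByExpr, TMM scaling, robust quasi-likelihood fit without covariates, Benjamini-Hochberg adjustment over 14567 genes, threshold 0.05). The common coefficient of biological variation was 0.143. Within a group, the chi-square per gene between libraries was at least 14.0 over genes of 100 or more counts, so no library repeated another. Correlations used log2 CPM with a prior count of 2 and exact permutation of libraries. Scripts were tested on simulated data. The alternatives were other scalings (RLE, upper-quartile, library size), other filters, DESeq2 1.42.0, limma-voom (limma 3.58.1), the title number as covariate, Spearman's rho, group-centred values, other log settings and leaving out libraries; the fit without WT replicates 2 and 4 was chosen after seeing the data. The loop genes and the lists were chosen with earlier results of these data known. The named genes are the loop genes, the 2 of smallest p in each list, the 5 genes most and least like Arntl and Nr1d1, and genes that overlap a loop gene; the other output, glucocorticoid-induced and marker genes given by their levels or correlations, Pkp2 and the genes marked in the text were picked outside this rule, after their values were seen. The result of 1 list of clock genes is not reported here.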

Additional observations from a re-analysis of the deposited data

Results flagged for a closer look

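Dixon's criterion was applied to the CPM of 38 groups of 4 libraries (the loop and output genes in HET and in WT). In 5 of them, 1 library lay far from the other 3. Chance gives about 5% of independent groups. These groups are not independent, because they share their libraries, so the 2 shares cannot be compared as a test. In WT replicate 2, Per1 was at 107.5 CPM (next 40.2), Per2 at 39.1 CPM (next 8.84), Hlf at 44.5 CPM (next 17.3) and Ciart at 33.6 CPM (next 6.45). In HET replicate 1, Nr1d2 was at 64.4 CPM (next 73.0), where the other 3 HET libraries lay within a narrow band.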

How the results depend on the processing

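Of 416 values of log2 fold change (26 named genes under 16 alternatives), 400 kept their direction and their side of the threshold and 16, over 10 genes, reversed. No loop gene passed under any of these alternatives. With the title number as covariate the values were -0.029 for Arntl, -0.0063 for Clock, -0.22 for Npas2, 1.01 for Per2, 0.30 for Per3, 0.11 for Cry2, 0.17 for Nr1d2 and -0.035 for Thra. With limma-voom Per2 had 0.069. Leaving out single libraries gave -0.087 to 0.31 for Npas2, -0.92 to 0.72 for Per2, -0.88 to 0.037 for Per3, -0.054 to 0.15 for Cry1, -0.22 to 0.091 for Nr1d2 and -0.00076 to 0.10 for Rora. Over all genes, 1 was called lower, with 2 when no filter was used, 7 by DESeq2 (and 7 higher) and 1 to 3 when single libraries were left out (3 without HET replicate 3). The 23 called pairs of loop genes became 0 by Spearman's rho, 0 after centring by group, 0 without the 2 farthest libraries and 0 to 23 when single libraries were left out (0 without WT replicate 2, 2 without WT replicate 4, 10 without WT replicate 1, 13 without WT replicate 3). The 48 pairs with output genes became 8 to 49 (8 without WT replicate 2, 28 without WT replicate 4, 31 without WT replicate 1), and the 0 pairs of Per and glucocorticoid-induced genes 0 to 1. The median SD of the loop genes was 0.27 to 0.43 when single libraries were left out (0.27 without WT replicate 2), and 0.19 without WT replicates 2 and 4. Fits that leave out libraries also have fewer of them. The cause of these changes was not tested. No paired analysis was possible because the labels give no replicate numbers; the title number, which HET and WT libraries share unevenly, was fitted as a covariate. With 4 libraries a group and this spread, the intervals of Arntl, Per1, Per2 and Per3 leave room for changes of over 1 log2 unit.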
